A study of Oncorhynchus mykiss with 6 samples.

Results

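The genes described here are those of drug and steroid metabolism in rainbow trout liver: cytochrome P450s, UDP-glucuronosyltransferases, sulfotransferases and the other genes that the authors' annotation places in the KEGG class of xenobiotic metabolism. They were chosen by symbol (beginning with cyp or ugt and a digit, or with sult) or by that KEGG class. Glutathione transferase symbols beginning with gst and the nucleotide-synthesis genes rrm, tk1 and dut were left out. The rule took 38 of the 5045 genes in the deposited table, 28 by symbol and 10 by KEGG class alone. The class is wider than the breakdown of drugs, since 7 of the P450s are known for work on sterols, bile acids or vitamin D and 4 of the enzymes handle pyrimidines or their nucleosides.

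RNA-seq was run on liver, with 3 libraries from the heat group (24 °C for 8 h) and 3 from the control group (18 °C), and the design text asks how liver mRNA levels differ between them. The labels word both treatments as applied to trout liver, and do not give the strain, age or sex of the fish or whether each library is 1 fish. The p-values below therefore describe variation from library to library, part or all of which may be technical. The authors' deposited table holds only genes with an adjusted p under 0.05 and a change of at least 2-fold between these groups, so each gene below was selected on this comparison. That a member passes a test is fixed by this selection. The results below therefore concern direction, level and, above the 2-fold cut-off, size. Folds near 2 may be overstated because of that cut-off. Nothing can be said of P450 or conjugation genes outside the table. The genes of the table held between 2663575 and 3586127 read counts per heat library and between 1409460 and 1421082 per control library, and whole-library depth is unknown.

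Cytochrome P450s are haem enzymes that insert oxygen into fat-soluble molecules. In liver, some act on drugs, pollutants and plant compounds, and others build or break down sterols, bile acids and vitamin D. The products are then made water-soluble by conjugation, in which UDP-glucuronosyltransferases attach glucuronic acid and cytosolic sulfotransferases attach sulfate, so that they can leave in bile or urine. In fish as in mammals, the Ah receptor, which binds planar pollutants, switches on CYP1 genes.

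Most of these genes were lower in heat. Of the 37 with enough counts to test (at least 10 counts in 3 libraries), 26 fell and 11 rose (limma-voom, Benjamini-Hochberg adjusted p of at most 0.00407 for each). Among all 4766 genes tested, 41.9% fell and 58.1% rose, and 100% passed the threshold. The share of falls differed with control level. That level is part of the fold, so genes that fell enter the higher set more readily than genes that rose. At 20 FPKM or more in control, 83.3% of members (10 of 12) and 67.0% of all tested genes fell. Under 20 FPKM in control, 64.0% of tested members (16 of 25) and 40.3% of all tested genes fell. The members' median log2 fold change (heat over control) was -1.12, against 1.13 over all tested genes. All 37 changed at least 2-fold, as did 98.8% of all tested genes, and 9 changed at least 4-fold, against 28.1% of all tested genes. FPKM values (fragments scaled for transcript length and library size) of the heat and control libraries did not overlap for any tested member, nor for 99.5% of all tested genes. No member changed direction with another library scaling, but some rises were lost. Each gene was selected at 2-fold or more, which made a change of direction unlikely for any listed gene. With median-of-ratios scaling, which takes the typical gene of the table as unchanged, 26 members fell and 9 rose, and over all tested genes 41.9% fell and 36.4% rose. This scaling lowered the median of all tested genes (a shift of -0.89 on the log2 scale) and moved all 37 members by over 1.5 times. It makes every fall below larger and every rise smaller. The table was selected for change, so its typical gene need not be unchanged, and which scaling is nearer the truth was not tested. The remaining member, the bile acid and vitamin D hydroxylase gene Cyp27a1, was too low to test.

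**Figure D1:**
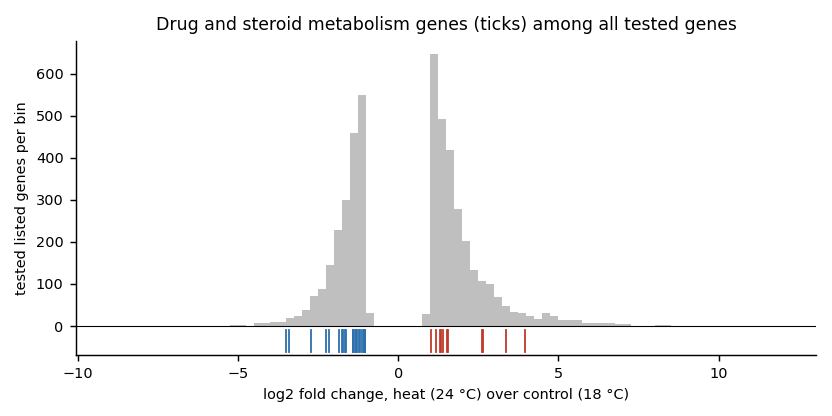
Number of all 4766 tested genes (grey bars, vertical axis) by log2 fold change of heat over control (horizontal axis), with each of the 37 tested drug and steroid metabolism genes as a tick below, blue where lower and red where higher in heat. The gap around 0 is the authors' selection; 26 ticks lie left of it and 11 right of it, while the grey bars hold more genes on the right.

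**Figure D2:**
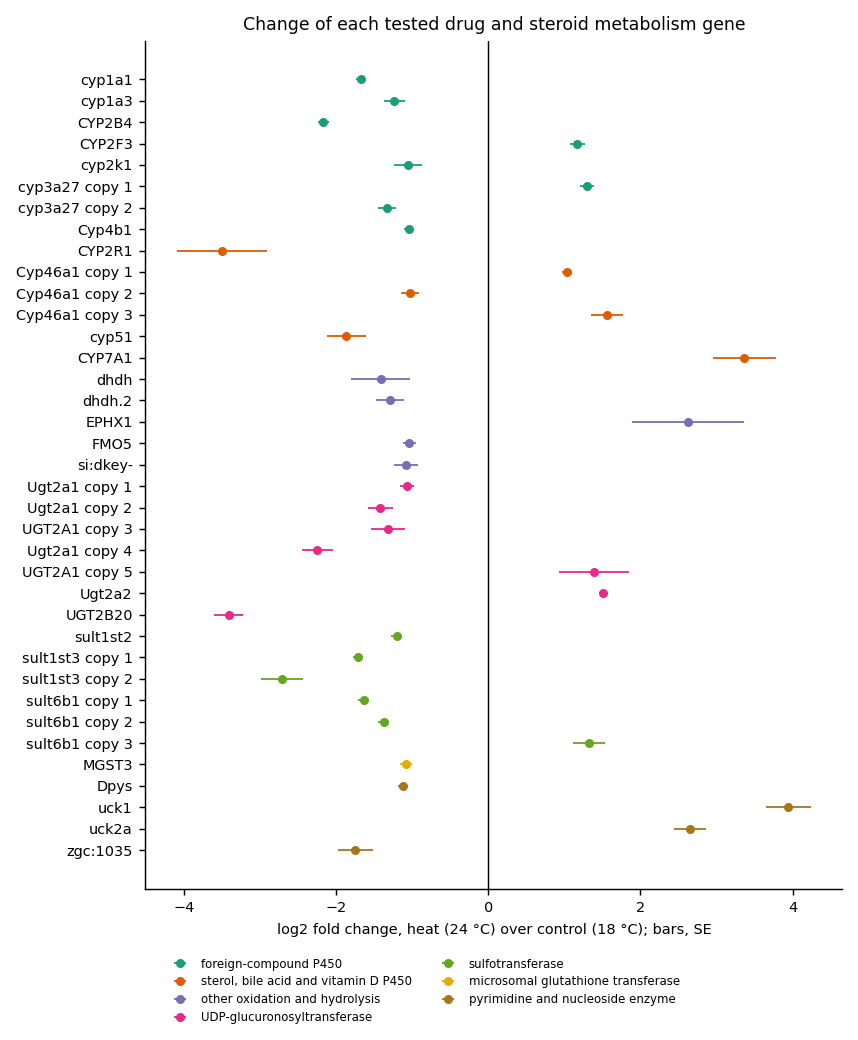
log2 fold change of heat over control for each of the 37 tested members (horizontal axis; points, limma-voom estimates; bars, SE), coloured by role. Points left of the line were lower in heat. UGT2B20 and CYP2R1 lie farthest left, and uck1 and CYP7A1 farthest right.

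Of the P450s known for foreign compounds, 6 of 8 fell, among them those most abundant in control liver. The gene cyp1a1, a target of the Ah receptor that oxidises polycyclic aromatic hydrocarbons, had 24.7, 23.7 and 27.3 FPKM in the heat libraries, against 79.6, 84.9 and 77.02 FPKM in the control libraries. All heat values lay under all control values, and the gene fell 3.196-fold (log2 fold change -1.68 ± 0.06, SE). Its trout relative cyp1a3 had 2.71, 2.21 and 2.82 FPKM in the heat libraries, against 5.69, 6.43 and 6.18 FPKM in the control libraries, and fell 2.36-fold (log2 fold change -1.24 ± 0.14, SE). The level of cyp1a3 was 0.110, 0.0933 and 0.103 times that of cyp1a1 in the heat libraries and 0.0715, 0.0758 and 0.0803 times in the control libraries, so cyp1a1 was the more abundant gene in both groups. The sequences of CYP1A genes are close to each other, and the counting could have split reads between them, so the value of each is uncertain. Their summed level was 27.8 ± 2.09 FPKM in heat and 86.6 ± 4.21 FPKM in control (SD, n = 3).

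The steepest fall in this set was that of CYP2B4, which carries the name of a rabbit drug-metabolising P450. It had 17.7, 16.8 and 19.3 FPKM in the heat libraries, against 78.7, 81.01 and 81.6 FPKM in the control libraries, and fell 4.49-fold (log2 fold change -2.17 ± 0.07, SE). It was level with cyp1a1 in control liver and stood below it in each heat library. Cyp4b1, of a family that hydroxylates fatty acids and some foreign compounds, had 35.1, 34.1 and 38.1 FPKM in the heat libraries, against 72.8, 74.3 and 73.5 FPKM in the control libraries. It fell 2.06-fold (log2 fold change -1.04 ± 0.06, SE), and was the most abundant of the 8 in heat. The gene cyp2k1, whose trout enzyme hydroxylates lauric acid and activates aflatoxin, was low, with 1.54, 1.52 and 1.195 FPKM in the heat libraries, against 2.398, 3.35 and 3.19 FPKM in the control libraries. It fell 2.07-fold (log2 fold change -1.05 ± 0.18, SE), with a gap between the groups of less than 1 FPKM.

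Against these falls, CYP2F3, which carries the name of a goat lung P450, rose 2.25-fold (log2 fold change 1.17 ± 0.10, SE). It had 21.2, 21.8 and 22.4 FPKM in the heat libraries, against 8.03, 11.2 and 10.1 FPKM in the control libraries, and the heat libraries lay close together. The 2 listed copies of cyp3a27, a trout gene of the family that clears many drugs and steroids, moved in opposite directions. Copy 1, numbered here by mean level over all libraries, had 21.5, 22.05 and 22.1 FPKM in the heat libraries, against 9.27, 8.89 and 8.57 FPKM in the control libraries, and rose 2.46-fold (log2 fold change 1.30 ± 0.09, SE). Copy 2 had 4.14, 5.21 and 4.54 FPKM in the heat libraries, against 10.6, 11.2 and 10.9 FPKM in the control libraries, and fell 2.52-fold (log2 fold change -1.33 ± 0.11, SE). The ratio of copy 1 to copy 2 within a library, which does not depend on library scaling, was 5.19, 4.23 and 4.88 in heat and 0.874, 0.796 and 0.786 in control. The leading copy therefore differed between the groups in all 6 libraries. The copies' summed level was 26.5 ± 0.816 FPKM in heat and 19.8 ± 0.302 FPKM in control (SD, n = 3), and it was lower in heat with TMM scaling, at 18.5 in heat and 19.95 in control, and with median-of-ratios scaling, at 14.3 in heat and 19.9 in control. How reads that match several near-identical copies were counted is not stated, which leaves the value of each copy uncertain here and for every symbol with copies below.

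Summed over the 8 genes, the foreign-compound P450s came to 128.5, 127.3 and 137.7 FPKM in the heat libraries and 267.0, 281.3 and 271.0 FPKM in the control libraries. Heat levels were 0.480 times control levels. The make-up of the sum differed as well. CYP2B4 took 13.7 ± 0.432% of it in heat and 29.5 ± 0.650% in control, and cyp1a1 took 19.2 ± 0.580% in heat and 29.5 ± 0.925% in control (SD, n = 3). The share of Cyp4b1 was 27.2 ± 0.444% in heat and 26.9 ± 0.445% in control, a difference smaller than the SD of either group. Because these are bulk samples, fewer cells of a type and less RNA per cell cannot be told apart.

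**Figure D3:**
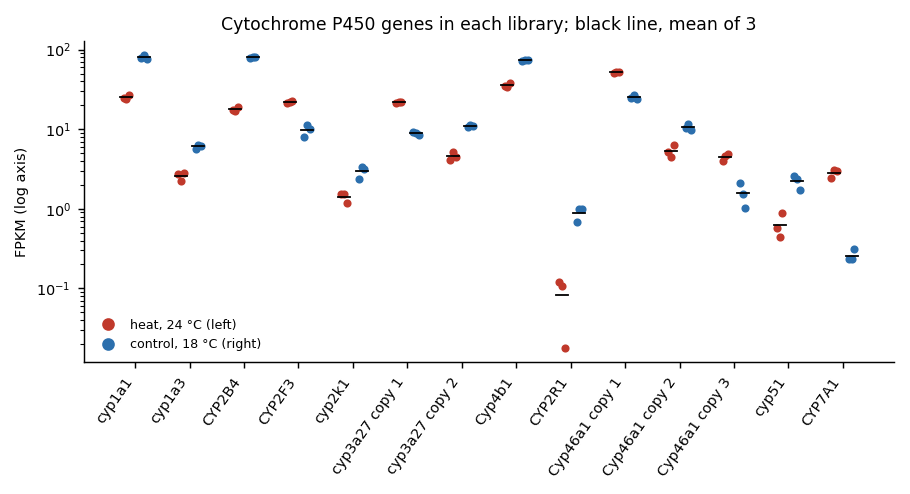
FPKM of the 14 tested P450 genes in each library (vertical axis, log scale), with heat libraries (red) left of control libraries (blue) and a black line at the mean of 3. The foreign-compound genes are on the left from cyp1a1 to Cyp4b1, and the sterol and vitamin D genes on the right; CYP7A1 and Cyp46a1 copies 1 and 3 are higher in heat, while CYP2R1 is near 0 in 1 heat library.

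The P450s of sterol, bile acid and vitamin D metabolism split evenly, with 3 of 6 tested members higher and 3 lower in heat. CYP7A1, which catalyses the rate-limiting step of bile acid synthesis from cholesterol, had 2.47, 3.07 and 2.97 FPKM in the heat libraries, against 0.233, 0.233 and 0.312 FPKM in the control libraries. It stood at a low level in all libraries, with 372 counts over the heat group and 27 over the control group, and rose 10.3-fold (log2 fold change 3.37 ± 0.41, SE). Cyp27a1, the mitochondrial sterol hydroxylase of the alternative bile acid route, had 1 count over the heat group and 15 over the control group. That is a ratio of control to heat of 19.2 (95% exact interval 2.95 to 807), which covers counting error only. The 2 bile acid hydroxylases therefore lay on opposite sides, and both were scarce.

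Cyp46a1 encodes cholesterol 24-hydroxylase, known from mammals chiefly as a brain enzyme, and 3 copies were listed. Copy 1, the most abundant P450 gene of the list in heat, had 50.7, 52.98 and 52.6 FPKM in the heat libraries, against 24.99, 27.1 and 24.1 FPKM in the control libraries, and rose 2.05-fold (log2 fold change 1.04 ± 0.07, SE). Copy 3 had 3.96, 4.57 and 4.93 FPKM in the heat libraries, against 2.13, 1.56 and 1.01 FPKM in the control libraries, and rose 2.95-fold (log2 fold change 1.56 ± 0.21, SE). Copy 2 went the other way. It had 5.13, 4.49 and 6.25 FPKM in the heat libraries, against 10.5, 11.8 and 9.84 FPKM in the control libraries, and fell 2.04-fold (log2 fold change -1.03 ± 0.12, SE). Copy 1 was 9.87, 11.8 and 8.41 times as abundant as copy 2 in the heat libraries and 2.38, 2.29 and 2.45 times in the control libraries. The sum of the 3 copies was 61.9 ± 2.01 FPKM in heat and 37.7 ± 2.75 FPKM in control (SD, n = 3), and with median-of-ratios scaling it was lower in heat, at 33.4 in heat and 37.9 in control.

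Both remaining sterol and vitamin D genes fell. The cholesterol-synthesis gene cyp51, which encodes lanosterol demethylase, had 0.574, 0.438 and 0.884 FPKM in the heat libraries, against 2.61, 2.37 and 1.74 FPKM in the control libraries, and fell 3.64-fold (log2 fold change -1.86 ± 0.25, SE). CYP2R1, the main vitamin D 25-hydroxylase of vertebrate liver, had 0.121, 0.107 and 0.018 FPKM in the heat libraries, against 0.69, 0.985 and 0.982 FPKM in the control libraries. It fell 11.3-fold (log2 fold change -3.50 ± 0.59, SE), but this rested on 16 heat counts and was 7.22-fold without heat replicate 3, which held 1 of them. Whether its fall or that of UGT2B20 was the larger depended on the setting. The highest heat library stood far under the lowest control library.

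Among the other oxidising and hydrolysing enzymes, 4 of 5 fell. FMO5, a flavin-containing monooxygenase, had 5.42, 5.98 and 5.53 FPKM in the heat libraries, against 11.9, 11.5 and 11.2 FPKM in the control libraries, and fell 2.05-fold (log2 fold change -1.04 ± 0.08, SE). A gene listed under a truncated clone name (si:dkey-) with the same KEGG orthologue had 1.48, 1.33 and 1.67 FPKM in the heat libraries, against 3.56, 3.08 and 2.81 FPKM in the control libraries, and fell 2.11-fold (log2 fold change -1.08 ± 0.15, SE). Both monooxygenase genes were therefore lower in every heat library. The dihydrodiol dehydrogenase genes, whose enzymes oxidise the diols formed from aromatic hydrocarbons, also fell. The more abundant, dhdh.2, had 2.38, 5.203 and 3.68 FPKM in the heat libraries, against 7.71, 8.37 and 9.42 FPKM in the control libraries, and fell 2.46-fold (log2 fold change -1.30 ± 0.19, SE). The other, dhdh, was under 1.1 FPKM in every library and fell 2.66-fold (log2 fold change -1.41 ± 0.39, SE), or 1.70-fold without heat replicate 1, with an adjusted p of 0.0461 by limma-voom. EPHX1, the microsomal epoxide hydrolase, was the exception. It rose 6.17-fold (log2 fold change 2.63 ± 0.73, SE), from few reads, with 50 counts over the heat group and 5 over the control group. MGST3, a microsomal glutathione transferase, had 34.6, 35.5 and 29.2 FPKM in the heat libraries, against 70.7, 67.6 and 71.4 FPKM in the control libraries, and fell 2.11-fold (log2 fold change -1.08 ± 0.08, SE).

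In the conjugating families, nearly all sulfotransferases fell, while the UDP-glucuronosyltransferases were divided between an abundant gene that rose and several that fell. Of the 6 sulfotransferase genes, 5 fell. The gene sult1st2, a family 1 enzyme of the type that sulfates phenols, had 42.6, 39.3 and 43.4 FPKM in the heat libraries, against 101, 94.1 and 93.1 FPKM in the control libraries, and fell 2.303-fold (log2 fold change -1.20 ± 0.07, SE). Copy 1 of sult1st3 had 14.7, 16.3 and 13.7 FPKM in the heat libraries, against 47.1, 50.5 and 48.6 FPKM in the control libraries, and fell 3.28-fold (log2 fold change -1.71 ± 0.07, SE). Copy 2 had 0.842, 0.762 and 0.901 FPKM in the heat libraries, against 7.03, 5.12 and 5.05 FPKM in the control libraries, and fell 6.54-fold (log2 fold change -2.71 ± 0.27, SE). For each of these genes the heat libraries lay under the control libraries, and the less abundant sult1st3 copy had the larger fold.

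The sult6b1 symbol, of a less studied sulfotransferase family, stood for 3 listed genes. Copy 1 had 32.9, 27.8 and 30.1 FPKM in the heat libraries, against 94.6, 90.9 and 98.2 FPKM in the control libraries, and fell 3.11-fold (log2 fold change -1.64 ± 0.07, SE). Copy 2 had 33.1, 38.4 and 29.9 FPKM in the heat libraries, against 91.2, 92.2 and 78.8 FPKM in the control libraries, and fell 2.59-fold (log2 fold change -1.37 ± 0.07, SE). Copy 3, the scarce one, went up. It had 4.2, 5.45 and 5.09 FPKM in the heat libraries, against 1.84, 1.97 and 1.93 FPKM in the control libraries, and rose 2.502-fold (log2 fold change 1.32 ± 0.21, SE), a call that ended with median-of-ratios scaling (adjusted p = 0.0542 by limma-voom). Copies 1 and 2 were of similar level in both groups, with a ratio of copy 2 to copy 1 of 1.13 ± 0.222 in heat and 0.927 ± 0.111 in control (SD, n = 3). Over the 6 sulfotransferase genes the summed level was 128.3, 128.0 and 123.1 FPKM in the heat libraries and 342.5, 334.7 and 325.7 FPKM in the control libraries. This was the largest summed level among the classes in control liver, and heat levels were 0.378 times control levels.

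Of the 7 UDP-glucuronosyltransferase genes, 5 fell and 2 rose. Ugt2a2 was the most abundant member of all 38 in heat, with 141, 138 and 149.7 FPKM in the heat libraries, against 49.1, 51.6 and 49.4 FPKM in the control libraries. It rose 2.85-fold (log2 fold change 1.51 ± 0.05, SE). The only other member of the family to rise was copy 5 of UGT2A1, at 0.513 ± 0.142 FPKM in heat, against 0.184 ± 0.0571 FPKM in control (SD, n = 3). It rose 2.62-fold (log2 fold change 1.39 ± 0.46, SE), and that call ended with TMM scaling (adjusted p = 0.0687 by limma-voom) and with median-of-ratios scaling (adjusted p = 0.304 by limma-voom).

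The other copies of Ugt2a1 fell, and the fold was not ordered by level. Copy 1 had 16.6, 13.2 and 13.5 FPKM in the heat libraries, against 32.2, 30.8 and 28.2 FPKM in the control libraries, and fell 2.09-fold (log2 fold change -1.06 ± 0.09, SE). Copy 2 had 1.72, 2.33 and 2.39 FPKM in the heat libraries, against 5.67, 5.52 and 5.56 FPKM in the control libraries, and fell 2.67-fold (log2 fold change -1.42 ± 0.16, SE). The groups stood well apart for both. Copy 3 had 1.18, 2.09 and 1.303 FPKM in the heat libraries, against 3.499, 2.96 and 4.58 FPKM in the control libraries, and fell 2.49-fold (log2 fold change -1.32 ± 0.22, SE). Copy 4, close to copy 3 in control, had 0.912, 0.772 and 0.758 FPKM in the heat libraries, against 3.95, 4.52 and 3.41 FPKM in the control libraries, and fell 4.75-fold (log2 fold change -2.25 ± 0.21, SE). UGT2B20, which carries the name of a macaque steroid-conjugating enzyme, fell most in the family. It had 1.41, 0.853 and 1.25 FPKM in the heat libraries, against 14.2, 14.5 and 13.01 FPKM in the control libraries, and fell 10.6-fold (log2 fold change -3.41 ± 0.19, SE). For this gene the fold of the mean FPKM was 11.9, and the counts per FPKM, after allowing for library totals, were 1.14 times as high in heat as in control. A ratio this far from 1 was not found for any other tested member, where it lay between 0.944 and 1.03.

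Summed over its 7 genes, the glucuronosyltransferase family came to 162.9, 158.2 and 169.3 FPKM in the heat libraries and 108.8, 110.1 and 104.4 FPKM in the control libraries, although most of its members fell; with median-of-ratios scaling the sum was lower, at 88.3 in heat and 108.3 in control. The make-up of the family does not depend on the scaling. Ugt2a2 took 86.3, 87.5 and 88.4% of the summed FPKM in the heat libraries and 45.1, 46.9 and 47.4% in the control libraries. The ratio of Ugt2a2 to the most abundant Ugt2a1 copy was 10.01 ± 1.35 in heat and 1.65 ± 0.117 in control (SD, n = 3). These sums cover only listed genes.

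**Figure D4:**
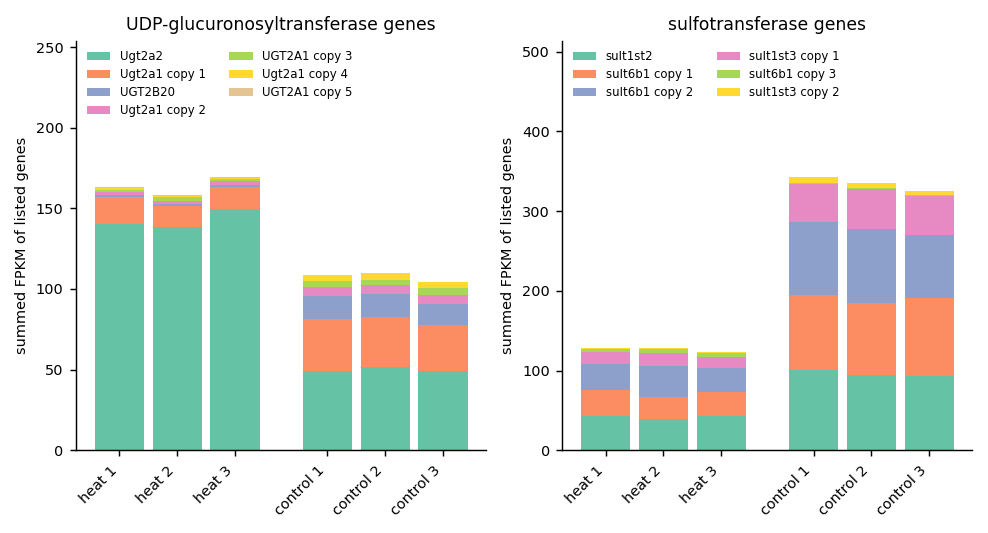
Summed FPKM (vertical axis, from 0) of the listed glucuronosyltransferase genes (left) and sulfotransferase genes (right) in each library, stacked by gene, with the 3 heat libraries left of the 3 control libraries. The glucuronosyltransferase bars are taller in heat (lower with median-of-ratios scaling) and mostly Ugt2a2, while the sulfotransferase bars stand at 123.1 to 128.3 in heat and 325.7 to 342.5 in control.

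**Figure D5:**
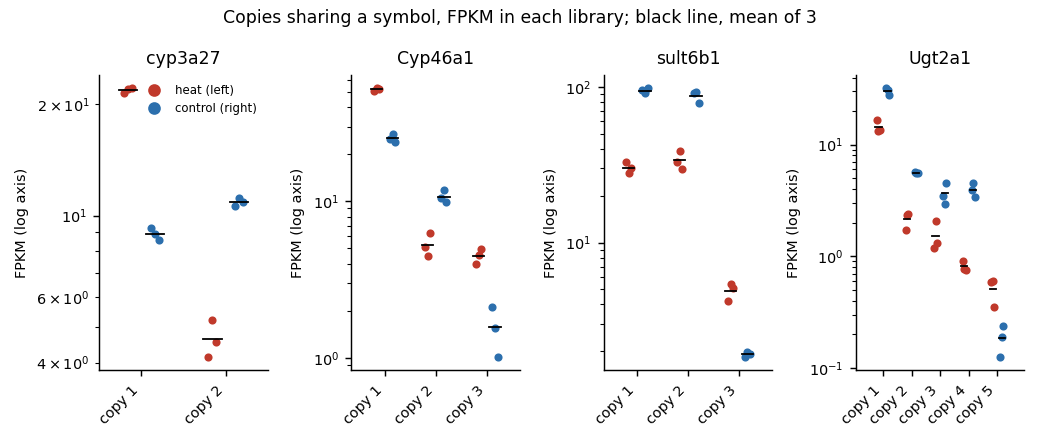
FPKM (vertical axes, log scale) of the copies that share the symbols cyp3a27, Cyp46a1, sult6b1 and Ugt2a1 in each library, with heat (red) left of control (blue) and a black line at the mean of 3. Each symbol has at least 1 copy that is higher and at least 1 that is lower in heat; on the sult6b1 axis the rising copy lies far below the other two.

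The 4 pyrimidine and nucleoside enzymes, which KEGG places in drug metabolism, held the largest rise of all members. That was uck1, a uridine-cytidine kinase of pyrimidine salvage, with 11.2, 10.6 and 10.7 FPKM in the heat libraries, against 0.63, 0.57 and 0.946 FPKM in the control libraries. It rose 15.4-fold (log2 fold change 3.95 ± 0.29, SE). Its relative uck2a had 3.68, 3.87 and 3.62 FPKM in the heat libraries, against 0.582, 0.664 and 0.52 FPKM in the control libraries, and rose 6.27-fold (log2 fold change 2.65 ± 0.21, SE). Both kinases were under 1 FPKM in every control library. The other enzymes of this set fell. Dpys, the dihydropyrimidinase of pyrimidine catabolism, had 11.8, 11.2 and 12.4 FPKM in the heat libraries, against 24.9, 27.1 and 25.1 FPKM in the control libraries, and fell 2.17-fold (log2 fold change -1.12 ± 0.06, SE). A gene listed under a truncated clone name (zgc:1035) whose KEGG orthologue is cytidine deaminase had 4.23, 2.19 and 2.54 FPKM in the heat libraries, against 10.5, 7.95 and 12.1 FPKM in the control libraries, and fell 3.36-fold (log2 fold change -1.75 ± 0.23, SE). Its heat replicate 1 lay above the other two heat libraries and below all control libraries.

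Other genes of the pathway were read from lists of regulators, cofactor enzymes, other metabolising enzymes and transporters, with the members left out. Of the nuclear receptors and liver factors, 10 of 16 fell and 6 rose. Nr1h4, the bile acid receptor, fell 2.17-fold, with 9.58 ± 1.03 FPKM in heat, against 21.1 ± 1.14 FPKM in control (SD, n = 3). Nr0b2, the corepressor that this receptor induces and that represses CYP7A1 in mammals, had listed genes on both sides, 2 lower and 1 higher. Its copy 1 averaged 14.1 ± 3.31 FPKM in heat, against 35.4 ± 2.67 FPKM in control, and copy 2 averaged 29.1 ± 2.004 FPKM in heat, against 12.6 ± 1.48 FPKM in control (SD, n = 3). The scarce nr0b2a fell 8.34-fold, with 0.124 ± 0.0505 FPKM in heat, against 1.11 ± 0.139 FPKM in control. With median-of-ratios scaling 10 of this list fell and 3 rose. AKR1D1, a reductase of bile acid synthesis and the only listed gene of the bile acid enzymes, fell 2.03-fold, with 52.3 ± 5.31 FPKM in heat, against 106 ± 1.65 FPKM in control. ABCB11, the bile salt export pump, had too few counts to test. It was scarce and higher in heat, at 1.18 ± 0.112 FPKM, against 0.153 ± 0.1525 FPKM in control (SD, n = 3).

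Of the 5 genes in the Ah receptor list, 2 fell and 3 rose. Under an Ah receptor symbol the list held only ahr1a. It fell 2.11-fold, with 2.46 ± 0.411 FPKM in heat, against 5.099 ± 0.7604 FPKM in control (SD, n = 3). Whether ahr1a acts on the cyp1a genes was not tested. HIF1A, whose description begins with "hypoxia-", fell 2.56-fold. The 3 that rose were Arntl copies 1 and 2 and ARNTL2, which encode clock factors rather than the partner of the receptor, and the calls of both Arntl copies ended with median-of-ratios scaling (adjusted p = 0.194 and 0.140 by limma-voom). Of the P450 electron donors and haem genes, 6 fell and 6 rose, or 6 and 3 with median-of-ratios scaling. The most abundant were BLVRB, at 52.4 ± 1.62 FPKM in heat, against 117 ± 2.29 FPKM in control, and copy 1 of CYB5A, a cytochrome b5 gene whose product passes electrons to P450s, at 26.2 ± 1.75 FPKM in heat, against 58.9 ± 1.95 FPKM in control. Copy 1 of urod, of haem synthesis, fell 3.98-fold.

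Of the genes listed by symbol for the supply of conjugation cofactors, 9 of 11 rose and 2 fell, or 7 and 2 with median-of-ratios scaling. The list includes genes not chiefly known for such supply, among them the slc35b1 copies, slc35b4 and AHCYL1. No ugdh or ugp2 gene, for the glucuronic acid donor, was in it. The sulfate donor of sulfotransferases is made by PAPS synthases, and all 3 listed genes for it rose. Of these, papss2b averaged 14.7 ± 0.622 FPKM in heat, against 5.15 ± 1.18 FPKM in control (SD, n = 3), and the Papss1 copies rose 2.4-fold and 2.96-fold, and the call of copy 1 ended with median-of-ratios scaling (adjusted p = 0.0747 by limma-voom). Mat1a, the liver enzyme that makes the methyl donor S-adenosylmethionine, had 217 ± 18.1 FPKM in heat, against 107 ± 0.716 FPKM in control. Copy 1 of slc35b1, a nucleotide carrier of the endoplasmic reticulum, had 31.9 ± 3.08 FPKM in heat, against 6.87 ± 0.552 FPKM in control. The gene mat2al was lower, at 10.2 ± 1.005 FPKM in heat, against 20.8 ± 2.31 FPKM in control. No test of the difference between the donor and the sulfotransferase genes was made.

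Of the genes listed by symbol as other phase 1 and phase 2 enzymes, 12 of 17 fell and 5 rose. With TMM and with median-of-ratios scaling, 12 fell and 4 rose. The falls include the aldh4a1 copies, Aldh6a1, aldh9a1a and aldh9A1, whose enzymes are known for amino acid or carnitine metabolism. The most abundant, Comtd1, a relative of catechol methyltransferase, rose 2.34-fold to 1814 ± 25.4 FPKM in heat, against 777 ± 50.97 FPKM in control (SD, n = 3). Cbr1, a carbonyl reductase, fell 2.79-fold. Of the 12 tested transporters, 7 fell and 5 rose, or 7 and 2 with median-of-ratios scaling. The most abundant were abcg5, of sterol export, at 7.38 ± 0.225 FPKM in heat, against 19.1 ± 1.31 FPKM in control, SLC22A2, an organic cation carrier, at 2.78 ± 0.3198 FPKM in heat, against 6.29 ± 0.657 FPKM in control, and SLC22A23, at 4.74 ± 0.355 FPKM in heat, against 2.19 ± 0.117 FPKM in control (SD, n = 3). The call of SLC22A23 ended with median-of-ratios scaling (adjusted p = 0.0906 by limma-voom). The share that fell was 18.2% for the cofactor list, 70.6% for the phase 1 and phase 2 list and 70.3% for the members. Both lists were drawn by symbol and hold genes of other pathways. The background was 41.9% over all tested genes, but 67.0% for those at 20 FPKM or more in control and 40.3% under it. Control level is part of the fold, so this split follows in part from the direction itself.

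Markers of the cell types in liver were few in the table. Of the hepatocyte list, only rbp4, at 1998 ± 136 FPKM in heat, against 5950.0 ± 207 FPKM in control, and FGA copies 1 and 2, up 4.87-fold and 4.05-fold, were listed, with a summed level of 2658 to 2866 FPKM in heat and 5885 to 6262 FPKM in control. Other defining hepatocyte genes such as alb and apoa1, and all erythrocyte markers, were not among the listed genes, so the tissue label could be checked only on these. Of 5 tested genes under myeloid marker symbols, 4 rose (Cd163 copies 1, 2 and 3 and mmp9) and 1 fell (csf1r1). Thus 3 of the rises belong to 1 symbol. The descriptions of Cd163 copies 2 and 3 begin with "deleted", unlike that of copy 1, so these may not be macrophage genes. With the untested CD163 copy 4, the summed level was 8.90 to 11.5 FPKM in heat and 1.07 to 1.31 FPKM in control. The single lymphocyte marker, IL7R, rose, with 2.73 to 2.83 FPKM in heat and 0.711 to 1.41 FPKM in control. So did krt18, with 172.4 to 178.9 FPKM in heat and 83.4 to 91.0 FPKM in control. It was listed for bile duct, but hepatocytes also make this keratin, so it does not mark bile duct. The single stroma marker, col1a1b, fell, with 8.82 to 9.40 FPKM in heat and 21.9 to 24.3 FPKM in control. Each of these cell types rested on few genes, and 58.1% of all tested genes were higher in heat. Of the 4 listed pancreas markers, both tested ones, gcg2 and ins copy 1, rose. With the untested ins copy 2 and CELA2A, the summed level was 34.5 to 37.5 FPKM in heat and 7.33 to 8.76 FPKM in control. Most of this was gcg2, at 31.95 ± 1.035 FPKM in heat, against 8.04 ± 0.797 FPKM in control (SD, n = 3). Of the intestine and steroid-cell markers, fabp2 fell and vil1 rose, with a summed level of 6.73 to 8.004 FPKM in heat and 18.4 to 25.4 FPKM in control. The call of vil1 ended with TMM scaling (adjusted p = 0.0807 by limma-voom) and with median-of-ratios scaling (adjusted p = 0.496 by limma-voom). The part of other cell types in the results on drug and steroid metabolism genes was not tested.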

How the data were processed

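Liver RNA was sequenced, per the labels' protocols. The submitters' processing notes name Bowtie2 2.2.8 and StringTie. Not given in the sources used here are the build, the annotation, the strand setting and the authors' test, and coordinates are left out. The deposited table holds whole-number read counts and FPKM values per gene and library, per the file headers. Columns are 8 characters wide, so symbols are truncated (5 members have a symbol of 8 characters), and identifiers cannot tell copies apart. Copies are numbered by mean FPKM over the 6 libraries. No sequences are printed, since none were used here.

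Library totals came from counts divided by FPKM in 451 genes, each with 200 or more counts and 5 or more FPKM in all libraries. Relative to control replicate 1 they were 1.56, 1.17 and 1.14 in heat replicates 1 to 3 and 0.999 and 1.02 in control replicates 2 and 3. limma-voom (limma 3.58.1, R 4.3.3) was fitted to all genes with at least 10 counts in 3 libraries, with group as the only term and Benjamini-Hochberg adjustment over all of them. It was also tried on simulated counts, in which most genes were unchanged, unlike the genes listed here. Levels are the authors' FPKM and folds are those of limma-voom. Sums and figures used Python 3.11.15, pandas 2.3.3 and matplotlib 3.10.9.

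The members, lists, markers and tests were chosen with earlier results of these data known. Every library's value is given for members averaging 1 FPKM or more in either group. From each pathway list the 3 tested genes of highest mean level are named. The list genes nr0b2a, papss2b, Papss1, Arntl copy 2, ARNTL2 and ABCB11, and the marker genes, were added after their values were seen. Also named outside the rule of level, for their known roles, are slc35b1 copy 2, slc35b4, AHCYL1, the aldh4a1 copies, Aldh6a1, aldh9a1a and aldh9A1.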

Additional observations from a re-analysis of the deposited data

How the results depend on the processing

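No tested member changed direction under TMM or median-of-ratios scaling, other count filters, limma-trend on log2(FPKM + 0.1) or log2(FPKM + 1), the replicate block, or leaving out any library. Every listed gene was selected at 2-fold or more, and both scalings moved the median by less, so direction was nearly fixed in advance. Over all tested genes, 41.9% fell under both. Both scalings were computed over the listed genes, which were selected for change. The median log2 fold change of all tested genes moved by -0.53 with TMM and by -0.89 with median-of-ratios scaling, and the members' median was -1.65 and -2.01 under these. The smallest rises with median-of-ratios scaling were those of Cyp46a1 copy 1 (0.14), CYP2F3 (0.27) and cyp3a27 copy 1 (0.40). Counts of members higher and lower in heat were 10 and 26 with TMM, 11 and 27 with no count filter, 9 and 24 with at least 50 counts in 3 libraries, and 8 and 19 with 1 gene per symbol. Without each library in turn, 11 rose and 26 fell, 35 to 36 changed at least 2-fold and the median lay between -1.17 and -1.10. With the replicate block, 11 rose and 26 fell. Deviations of same-numbered libraries did not correlate (0.0267, 0.0116 and -0.00931), so the numbers were not taken to pair the samples. The pseudocount of 1 left 26 members changed at least 2-fold, against 37 as reported. It moved 11 members by over 1.5 times, among them CYP2R1 at 1.74-fold, EPHX1 at 1.32-fold, CYP7A1 at 3.04-fold, UGT2A1 copy 5 at 1.27-fold and dhdh at 1.38-fold. UGT2B20 fell more than CYP2R1 with the replicate block (10.7-fold against 9.63-fold), without heat replicate 3 (11.2-fold against 7.22-fold) and with both pseudocounts. The same held, by a small margin, without control replicate 2 (10.73-fold against 10.69-fold) and without control replicate 3 (10.92-fold against 10.66-fold). UGT2B20 fell less than CYP2R1 as reported, with no count filter and without each other library. It also fell less with TMM scaling (15.4-fold against 16.4-fold) and with median-of-ratios scaling. With a pseudocount of 0.1, CYP2R1 was at 5.56-fold and EPHX1 at 3.17-fold. Depth limits the scarce members, EPHX1, CYP2R1, dhdh, Cyp27a1 and UGT2A1 copy 5.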

Other observations

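Over all 38 members the summed level was 558.2, 555.9 and 567.8 FPKM in the heat libraries and 891.4, 897.9 and 873.7 FPKM in the control libraries, so the libraries of each group lay close together in total. Over the 37 tested members, the median coefficient of variation of the FPKM was 11.4% in heat and 8.56% in control. The widest spreads in heat among these were 68.1% for CYP2R1 and 50.5% for dhdh, which had 16 and 50 counts over the heat group. Counting error adds to the spread of genes with few counts, and most tested members were lower in heat. Its part in the difference between the groups was not tested.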
